A study of Homo sapiens with 4 samples.

Results

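LINC00534 and ENSG00000286251 are long genes for non-coding RNAs in which several m6A sites were listed by m6A-SAC-seq of chromatin-associated RNA from K562 cells. They were chosen by the number of listed sites they hold, so that number is a description and not a finding. Sites were taken as members when their listed position and strand fell within either gene, which gave 12 of the 275 listed sites, 7 in LINC00534 and 5 in ENSG00000286251. LINC00534 (ENSG00000253394.7) lies on the plus strand of chromosome 8 from 90221341 to 90687863 (hg38), and ENSG00000286251 (ENSG00000286251.2) lies on the minus strand of chromosome 4 from 126431694 to 126735523. By the number of listed sites on their own strand they ranked 4th and 6th among the 176 genes with a site, and 4 sites were the most in any gene below them.

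The experiment had 4 libraries, 1 per condition, all from wild-type K562, a human chronic myeloid leukaemia line. RNA of the chromatin fraction was depleted of ribosomal RNA and was either kept as input or pulled down on beads with purified RBFOX2 protein, and each of these RNAs was sequenced after treatment with recombinant MjDim1 enzyme or without it. The pulldown was of extracted RNA with added protein, and the label for cell type reads hepatoma, at odds with the line named K562 in the same labels and in the methods. The deposited list gives 2 m6A levels in percent for each site and the ratio of the second to the first, and it does not name the library of either level. They are called the first and the second level here, no read counts were given, the depth behind each level is unknown, and with 1 library per condition no difference could be tested.

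m6A is adenosine methylated on its base, written by a complex built around METTL3 and METTL14 that mostly acts on the motif DRACH (D stands for A, G or U, R for A or G, and H for A, C or U). MjDim1 adds an allyl group to m6A, which is then read as a base mutation during reverse transcription, so the level is a mutation frequency at 1 adenine. RBFOX2 is an RNA-binding protein best known as a splicing regulator, and it binds UGCAUG and its core GCAUG through its RNA-recognition motif. Introns are removed from most transcripts soon after synthesis, and RNA that is still attached to chromatin is rich in them.

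The 101 nt around each of the 5 sites of ENSG00000286251 are shown because they hold the site and, at 3 of them, the core of the RBFOX2 motif. The sequences run 5′ to 3′ on the minus strand of hg38 as RNA, with the 5-mer of the site and every GCAUG in capitals and the listed adenine at base 51. Numbers count from the 5′ end of the gene.
Site 1, chr4:126679953-126680053: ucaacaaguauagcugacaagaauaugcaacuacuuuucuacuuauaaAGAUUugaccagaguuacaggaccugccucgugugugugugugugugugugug
Site 2, chr4:126677098-126677198: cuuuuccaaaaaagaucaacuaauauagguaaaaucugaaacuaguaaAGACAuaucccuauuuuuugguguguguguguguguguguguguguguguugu
Site 3, chr4:126676125-126676225: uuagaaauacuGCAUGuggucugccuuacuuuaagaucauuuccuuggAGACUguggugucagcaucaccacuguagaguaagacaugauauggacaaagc
Site 4, chr4:126665756-126665856: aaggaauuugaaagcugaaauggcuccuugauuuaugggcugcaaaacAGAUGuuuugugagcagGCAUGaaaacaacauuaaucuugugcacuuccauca
Site 5, chr4:126617899-126617999: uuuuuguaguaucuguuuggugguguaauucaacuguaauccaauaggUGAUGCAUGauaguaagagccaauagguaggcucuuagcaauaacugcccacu
At site 5 the UGCAUG starts at the base after the listed adenine, so motif and site overlap. Downstream of sites 1 and 2 runs a stretch of alternating U and G.

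At all 5 sites of ENSG00000286251 the second level was the higher. The difference was widest at site 4, an AGAUG, where the first level was 16.5% and the second 46.2%, a difference of 29.7 percentage points and a ratio of 2.80. Site 5, a UGAUG, had 14.8% and 33.3%, a ratio of 2.26. Site 2, an AGACA and 1 of 2 DRACH sites in the gene, had the lowest first level, 5.42%, against a second level of 12.5% and a ratio of 2.31. That first level lies near the floor of the list, where the lowest level of any site was 5.02%. These 3 sites passed a ratio of 2. Site 3, an AGACU and the other DRACH site, had 17.5% and 26.3%, a ratio of 1.5. At site 1, an AGAUU, the levels were nearly the same, 15.1% and 15.6%, a ratio of 1.04. Over the 5 sites the median first level was 15.1%, the median second level 26.3% and the median ratio 2.26.

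At LINC00534 the second level was the higher at 6 of 7 sites and the lower at 1. Site 7, an AGACG at position 90465651, had the widest difference, with a first level of 15.6% and a second of 50%, a ratio of 3.2. Site 6, an AGAUG at 90341635, had 16.8% and 42.9%, a ratio of 2.55. Site 3, a GGACU at 90275761, had 7.38% and 21.2%, a ratio of 2.88. Site 1, an AGAUU at 90256660, had 10.7% and 22.7%, a ratio of 2.12. These 4 sites passed a ratio of 2, from first levels on both sides of the gene's median of 13.9%.

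The other 3 sites of LINC00534 had second levels under 15%. Site 2, an AGACA at 90275040, had 7.2% and 8.33%, a ratio of 1.16. Site 5, a GGAUU at 90341472, had 13.9% and 14.3%, a ratio of 1.03. Site 4, an AGACU at 90275967, went the other way, with a first level of 24.2%, the highest of the 12 sites, and a second level of 8.93%. Its ratio of 0.368 was the lowest of all 275 listed sites. The median ratio of LINC00534 was 2.12 and its median second level 21.2%.

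**Figure D1:**
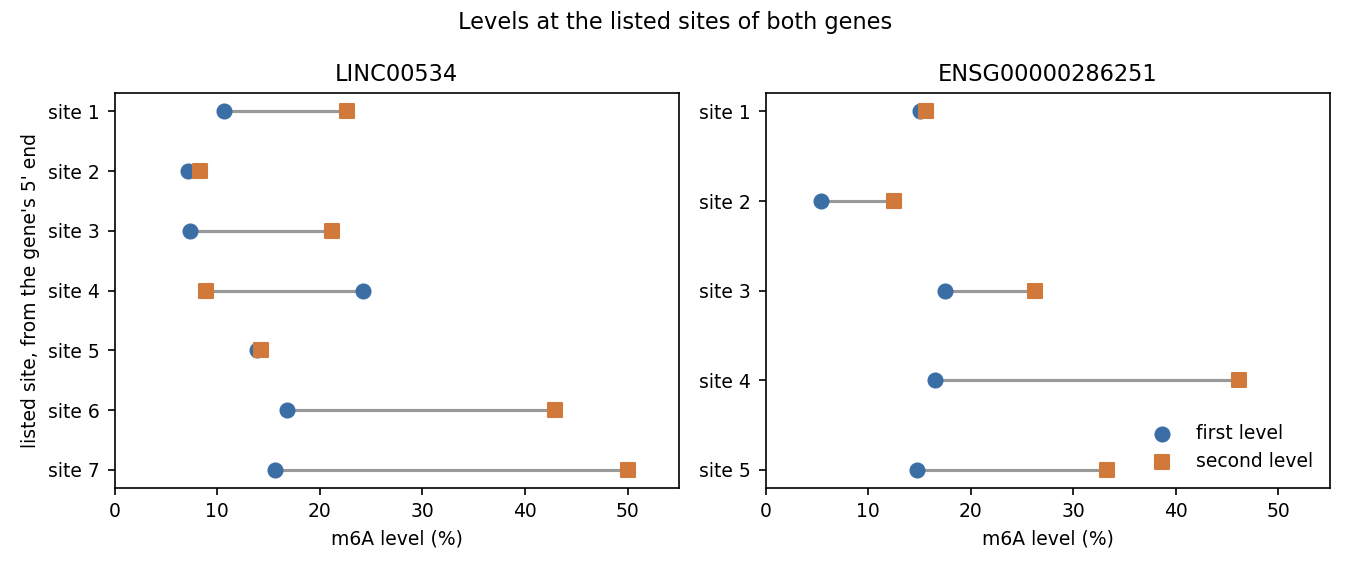
m6A level in percent (x axis) at each listed site of LINC00534 (7 sites) and ENSG00000286251 (5 sites), numbered from the 5′ end of the gene. Circles are the first level, squares the second, from 1 library each, so there is no error bar; the square lies to the right at 11 of 12 sites and to the left at LINC00534 site 4.

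Both genes together had a ratio of at least 2 at 7 of 12 sites (58.3%), beside 117 of all 275 (42.5%). Their second level was higher at 11 of 12 sites, beside 236 of 275 (85.8%). The median ratio over the 12 sites was 2.19, beside 1.73 over the whole list. The 27 other listed sites that lay in introns of long non-coding RNA genes had a median ratio of 2.29, and 16 of them (59.3%) reached 2, so the share in both genes was near that of such sites in general. The median of the first level was 14.9% in both genes and 10.9% over the list, while the median of the second was 22.0% and 22.7%.

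Long non-coding genes with more listed sites than either member served for comparison. CCDC26, a long non-coding gene known from myeloid leukaemia, had 8 sites with a median ratio of 2.12, a range of 1.52 to 6.04 and the second level higher at all 8. These 8 sites are also among the 27 other intronic sites of long non-coding genes, so the comparisons are not separate. NEAT1, the RNA around which paraspeckles form, had 8 sites with a median ratio of 1.49. MALAT1, an abundant RNA of nuclear speckles, had 26 sites with a median ratio of 1.09, and none reached 2. Among the 20 genes with at least 3 listed sites, the medians nearest to LINC00534 were those of CCDC26 (2.12), XIST (2.07) and CCNL2 (2.04). The medians nearest to ENSG00000286251 were those of POTEE (2.31), CCDC26 (2.12) and LINC00534 (2.12). These medians rest on 3 to 8 sites each. Of 21 genes for m6A writers, erasers, readers, PRC2 subunits and RBFOX proteins, EZH2, the catalytic subunit of PRC2, was the only one that held a listed site. In all, 176 genes held one on their strand. The share over all annotated genes is not given here, so nothing is read from this 1 of 21.

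**Figure D2:**
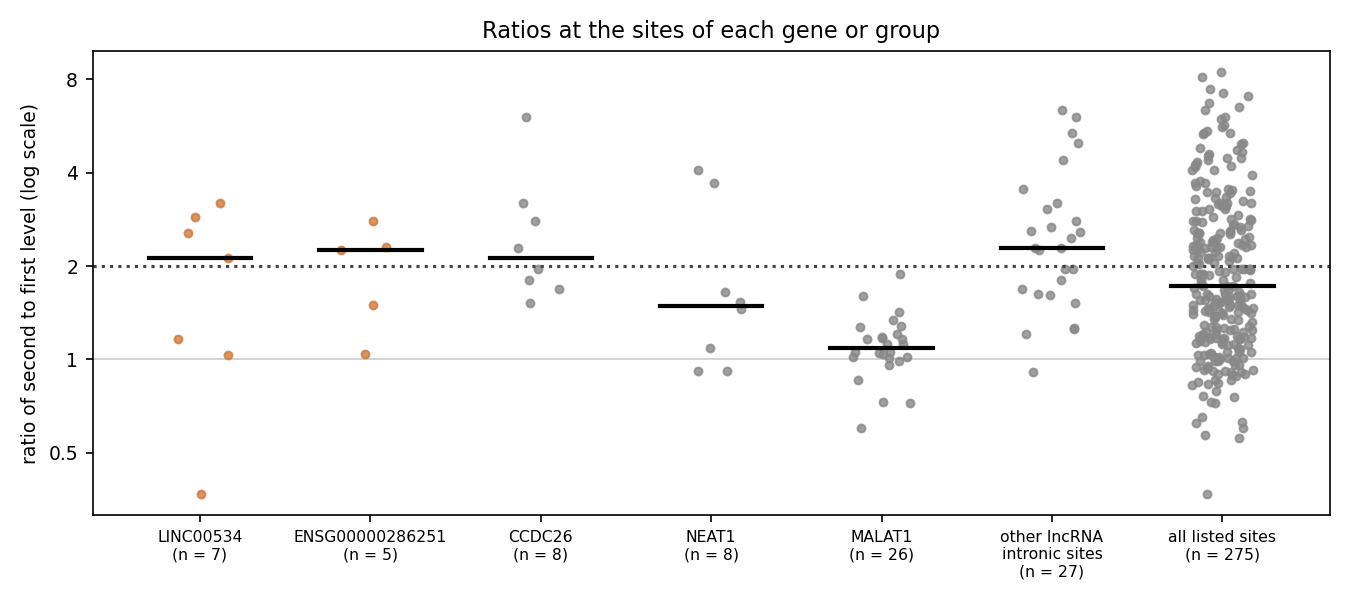
Ratio of the second to the first level (y axis, log scale) at each site of the genes and groups on the x axis, with the number of sites under each name; bars are medians and the dotted line is a ratio of 2. The sites of LINC00534 and ENSG00000286251 have medians of 2.12 and 2.26 and lie within the range of the 27 other intronic sites of long non-coding genes except for LINC00534 site 4 at 0.368. The sites of CCDC26 are also among these 27.

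All 12 sites were intronic, and none lay in an exon of any annotated transcript (GENCODE release 44). LINC00534 has 27 annotated transcripts, and the canonical one has 5 exons with 1053 nt out of a gene of 466.5 kb. Its sites 1 to 6 fell in the second canonical intron (208.1 kb) and site 7 in the third (214.5 kb). Each of sites 1 to 6 was spanned by 24 of the transcripts, and site 7 by 12. The distance to the nearest exon of any transcript was between 7.8 and 28.7 kb. ENSG00000286251 has 2 annotated transcripts, and the canonical one has 7 exons with 901 nt out of 303.8 kb. Its 5 sites were in the second canonical intron (233.1 kb), between 18.3 and 80.3 kb from the nearest exon. Only 1 of the 2 transcripts, the canonical one, spans these sites, so their intronic placement rests on it alone.

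The sites lay towards the 5′ side of both genes. In LINC00534 they ran from 35.3 to 244.3 kb from the gene start, the last at 52.4% of its length, and in ENSG00000286251 from 55.5 to 117.6 kb, the last at 38.7%. They were grouped rather than evenly spaced. LINC00534 sites 2, 3 and 4 fell within 927 nt and sites 5 and 6 were 163 nt apart, and 65.5 kb lay between the groups. In ENSG00000286251 sites 2 and 3 were 973 nt apart and site 1 was 2.9 kb upstream of site 2. No other listed site was near, the next on the chromosome being 23.3 Mb from LINC00534 and 3.5 Mb from ENSG00000286251.

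Of the 5 pairs of sites within 1 kb of each other in both genes, 3 had the same direction and 2 opposite directions, both with LINC00534 site 4. Over the whole list 60 of 141 such pairs (42.6%) had opposite directions, so the count in these genes was near that of the list. LINC00534 sites 3 and 4 were 206 nt apart, and the second level minus the first was 13.8 percentage points at site 3 and -15.3 at site 4.

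The motifs at the sites were alike in the 2 genes. DRACH accounted for 3 of 7 sites in LINC00534 and 2 of 5 in ENSG00000286251, together 41.7%, beside 33.8% of the list. At all 12 sites the adenine followed a G and preceded C or U, and over the list 90.9% followed a G and 84.7% preceded C or U. Both genes held 1 AGAUG, 1 AGAUU, 1 AGACU and 1 AGACA. The 2 AGAUG sites had levels close to each other, 16.8% and 42.9% in LINC00534 and 16.5% and 46.2% in ENSG00000286251, while the 48 AGAUG sites of the list had medians of 10.2% and 21.9%. The other shared 5-mers were less alike. The AGACU had ratios of 0.368 and 1.5, the AGAUU 2.12 and 1.04, and the AGACA 1.16 and 2.31.

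The 7 sites outside DRACH had a median ratio of 2.26 (range 1.03 to 3.2) and a median first level of 15.1%, and the 5 DRACH sites had 1.5 (range 0.368 to 2.88) and 7.38%. These ranges overlap. Over the list the medians of the ratio were 1.89 outside DRACH and 1.57 at DRACH. A listed adenine was a rare choice among candidates in these genes. LINC00534 holds 9709 DRACH and 700 AGAUG on its strand, of which 3 and 1 were listed, and ENSG00000286251 holds 5660 and 349, of which 2 and 1 were listed. Sites without enough reads could not be listed, so the others are not shown to be unmethylated.

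GCAUG lay within 50 nt of the listed adenine at 4 of 7 sites of LINC00534 and 3 of 5 of ENSG00000286251, together 58.3%, beside 33.5% of the list and 40.7% of the other intronic sites of long non-coding genes. The full UGCAUG lay near 2 sites of each gene, together 33.3%, beside 17.5% of the list and 25.9% of the other intronic sites of long non-coding genes. Both motifs were searched on the strand of the site, and UGCAUG contains GCAUG. Cut into consecutive windows of 101 nt, LINC00534 held GCAUG in 359 of 4619 windows (7.77%) and ENSG00000286251 in 275 of 3008 (9.14%). The nearest GCAUG began 20, 23, 22 and 11 nt downstream of LINC00534 sites 1, 2, 4 and 5. In ENSG00000286251 it began 39 nt upstream of site 3, 15 nt downstream of site 4 and 2 nt downstream of site 5. Among the 12 sites, the 7 with GCAUG had a median ratio of 1.5 (range 0.368 to 2.8). The 5 without it had 2.55 (range 1.04 to 3.2), and these ranges overlap. Over the list the order was the other way, 1.98 with it and 1.62 without, and neither difference was tested.

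The genes differed in how often the sequence at their sites recurs in the genome, which is given here because the level is a frequency of other bases in the aligned reads. Around 6 of 7 LINC00534 sites, and around 1 of 5 in ENSG00000286251, the 31 nt had at least 1 other place in hg38 within 3 mismatches, beside 33.0% of the 267 listed sites on assembled chromosomes. Sites 2, 4 and 6 of LINC00534 had 2626, 2274 and 3808 such places, and 6, 1 and 37 of these were identical over all 31 nt. At sites 5 and 7 there were 365 and 192, and at site 3 there were 14. LINC00534 site 1 and sites 1, 2, 3 and 5 of ENSG00000286251 had none, and site 4 had 4. Another base than adenine stood at the aligned place in 51, 45, 136, 5 and 1 of the copies of LINC00534 sites 2, 4, 6, 5 and 7, and in no copy of ENSG00000286251 site 4. The site with the reversed direction, LINC00534 site 4, was among the highly repeated ones. The 5 sites of the 2 genes with no other such place had ratios of 2.12, 1.04, 2.31, 1.5 and 2.26. Which reads the aligner placed at these sites is not given, and the part of the copies in the levels was not tested.

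The 2 groups of LINC00534 sites lay in 2 copies of the same element. The sequence around sites 2 to 4 aligned with that around sites 5 and 6 over 2692 bases with 82.1% identity, in the same orientation. The aligned stretches started 65.7 kb apart. The search reached 1500 nt beyond the outer sites of each group. The stretch around sites 5 and 6 began at that limit, so the full extent of the element is not given. The sequence around site 7 aligned with the first copy over 1571 bases with 76.6% identity. The listed adenines did not fall on matching bases. Site 3 and site 5 were 7 nt apart in the alignment, and sites 4 and 6 were 49 nt apart. The AGAUG of site 6 stands where the first copy has AGAUA. The AGACU of site 4 stands where the second copy also has AGACU, and that adenine was not listed. Windows of 301 nt around sites 3 and 5 also aligned with 2 listed sites of LINC02109, another long non-coding gene, on chromosome 5, with 74.6% to 76.7% identity. Those had ratios of 2.67 and 1.26. In all, 4 of the 12 sites shared a window with another listed site away from it, all in LINC00534, beside 53 of 275 (19.3%). Sites 2 to 6 of LINC00534 thus lie in aligned copies, and site 7 in a stretch of lower identity to them, so they are not separate contexts. Site 2 lay outside the part of the first copy that aligned with the sequence around site 7. The windows of sites 2 and 7 were matched by no other listed site. None of the ENSG00000286251 sites was covered by such a match, but 2 of its 5 sites had at least 8 units of UG within 50 nt. This was so at 8 of 275 sites (2.91%). It was also so at 3 of the 27 other intronic sites of long non-coding genes (11.1%) and at 1 of 8 sites of CCDC26 (12.5%). The feature was chosen after the sequences were seen.

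Genes on the other strand overlap both members. ENSG00000254180, a long non-coding gene on the minus strand, spans all 7 sites of LINC00534, and none of its own adenines was listed. TMEM64, a protein-coding gene on the minus strand, and LINC01030 overlap LINC00534 further downstream, beyond its sites. RNA5SP273 and ENSG00000246792 lie inside LINC00534 on its own strand and hold no listed site. RBM48P1, a processed pseudogene, lies on the plus strand within ENSG00000286251 and covers no site. The nearest protein-coding genes outside were CALB1, for a calcium-binding protein, and NECAB1 on either side of LINC00534, and FAT4, for a large cadherin, and INTU on either side of ENSG00000286251.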

How the data were processed

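The members and lists were chosen with earlier results of these data known. The authors clipped reads with cutadapt 2.10, removed duplicates by molecular identifiers, aligned to hg38 with STAR 2.7.3a under a mismatch limit that scales with read length, and used VarScan on pairs of libraries to find mutations. They kept adenines that passed limits on p, coverage, mutated reads, mutation frequency and difference from the untreated library. Sites at low coverage are thus missing, and repeated sequence was treated as the aligner's settings did. The deposited list has 6 columns and gives 2 levels in percent and, per the authors' file, their ratio as second over first (deposited unit: ratio). Further per-sample columns: 0.

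Genes came from GENCODE release 44, and hg38 sequence was read with samtools 1.23.1 and pysam 0.24.0. Windows were aligned with blastn 2.17.0 (E-value 1e-05) and Biopython 1.88 (match 1, mismatch -1, gap open -2, extension -0.5). Near copies were counted on 25 chromosomes (MT included), tested on simulated data. No test across libraries was possible, and sites are not replicates. Named were both genes, CCDC26, MALAT1 and NEAT1, overlapping or neighbouring genes, and the 3 genes with at least 3 sites nearest in median ratio; LINC02109, and EZH2 from the list of 21 m6A and RBFOX genes, were named after their values were seen.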

Additional observations from a re-analysis of the deposited data

How the results depend on the processing

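No value has a replicate, so the alternatives show the effect of definitions only. A value counted as moved when it changed by over 1.5-fold. The median ratios of LINC00534, ENSG00000286251 and both genes stayed within that under all alternatives. Among these were the mean (1.9, 1.98 and 1.93) and leaving out each site in turn (1.64 to 2.33, 1.88 to 2.28 and 2.12 to 2.26). With only sites whose lower level was at least 10% the medians were 2.33, 1.88 and 2.19. Another alternative, added after the data were seen, kept only sites with no other place within 3 mismatches. It gave 2.12, 1.88 and 2.12, and for LINC00534 this is 1 site.

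Counts depended on their limits. Those at a ratio of 3 and within 20 nt are not set beside the list here. With a ratio of 3 in place of 2, LINC00534 had 1 site, ENSG00000286251 had 0 and both had 1. The upper quartile of the ratio was 2.61 in both genes and 2.68 over the list. At the other intronic sites of long non-coding genes it was 3.13. The higher share at a ratio of 2 in these genes was thus not matched by a higher upper quartile. With GCAUG within 20 nt, LINC00534 had 1 site and both genes 3, and with UGCAUG LINC00534 had 2 and both 4. The median ratio of both genes lay 0.469 above that of all other sites. It lay 0.15 above the other sites outside MALAT1, NEAT1, mitochondria and small RNA genes, which counted as moved. Against the other intronic sites of long non-coding genes the difference was -0.104, so its direction reversed. DRACH counts and the intronic position of all 12 sites did not change. No paired analysis was possible because each condition has 1 library. Coverage per site is unknown, so the precision of each level could not be computed.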
